A study of Mus musculus with 138 samples.

Results

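The genes described here encode 4 proteins that the airway lining secretes: the secretoglobins SCGB1A1, SCGB3A1 and SCGB3A2, and the BPIF family protein that the array annotation calls PLUNC and the current mouse annotation Bpifa1. They were chosen by name out of 31490 gene names on the array, and 6 of its 45281 probes carry those names: 1 probe each for Scgb1a1 and Bpifa1, and a pair each for Scgb3a1 and Scgb3a2. Lung RNA came from 138 mice of the preCC, partly inbred lines under derivation from an intercross of the founder strains 129S1/SvImJ, A/J, C57BL/6J, CAST/Ei, NOD/LtJ, NZO/H1LtJ, PWK/Ph and WSB/Ei, with 1 mouse per line. All mice formed a single group. Each was sensitized by intraperitoneal injection with 10 ug of Der p 1, a house dust mite allergen, was challenged with 50 ug on day 15, and was sampled on day 18, 72 hours later. No unchallenged mouse and no founder strain was among the samples, so the comparisons below run across mice and none measures an effect of the allergen. Because each line gave 1 mouse, differences between lines and between animals of a line cannot be told apart.

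Secretoglobins are small secreted proteins that pair into dimers. Scgb1a1, also known as club cell secretory protein or uteroglobin, is the classic product of the club cells of the bronchioles. Scgb3a2 is also made by club cells and is a known target of the lung transcription factor Nkx2-1, and Scgb3a1 is a related secretoglobin of the conducting airways. Bpifa1, known in people as SPLUNC1, is a lipid-binding protein of the larger airways and their glands that coats the airway surface and takes part in defence against bacteria.

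The promoters of Scgb3a1 and Bpifa1 are shown because these were the most variable of the 4 genes and the pair that varied together. Both are the 250 bases before the annotated transcript start, on the plus strand of RefSeq assembly GRCm38.p6, at chr11:49663345-49663594 for Scgb3a1 and chr2:154142630-154142879 for Bpifa1. Capitals mark matches to the motifs named in the next paragraph.
Scgb3a1: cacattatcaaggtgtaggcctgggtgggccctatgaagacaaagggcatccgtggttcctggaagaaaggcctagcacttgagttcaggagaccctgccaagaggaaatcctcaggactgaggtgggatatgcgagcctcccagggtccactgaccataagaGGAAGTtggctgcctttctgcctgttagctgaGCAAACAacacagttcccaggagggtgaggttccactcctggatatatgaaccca
Bpifa1: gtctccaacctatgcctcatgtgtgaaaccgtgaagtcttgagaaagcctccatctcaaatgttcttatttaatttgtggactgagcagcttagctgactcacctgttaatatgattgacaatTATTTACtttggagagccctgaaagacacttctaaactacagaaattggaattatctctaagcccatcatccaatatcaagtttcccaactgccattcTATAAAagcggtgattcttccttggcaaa

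The letters searched, on both strands, were the forkhead form TGTTTAC with its variants TATTTAC (also known for forkhead factors) and TGTTTGC, the Ets form GGAAGT and the TATA box TATAAA, all chosen after the sequences had been seen. The Scgb3a1 promoter held GGAAGT at bases -87 to -82, and TGTTTGC on the minus strand at -55 to -49, counted back from the transcript start. The Bpifa1 promoter held TATTTAC at -127 to -121 and TATAAA at -29 to -24. No match overlapped another. Among 32851 RefSeq mouse promoters of the same length, 9.726% held at least 1 of the forkhead forms, 19.741% held GGAAGT and 12.368% held TATAAA. These matches describe the letters and were not tested as binding sites.

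Levels are the normalized log2 values that the authors deposited, and a probe counts as detected where the scanner's detection p was under 0.05. Each array detected 19075 to 21472 of the 45281 probes, with a median of 20426.5. Markers of lung tissue were detected in all 138 mice: Sftpc and Sftpb of alveolar type 2 cells, Ager of alveolar type 1 cells, Pecam1 of endothelium and Cyp2f2 of club cells, with mean log2 levels of 11.318 to 12.737. The number of arrays limits the precision. In whole lung RNA, fewer cells of a type and less RNA per cell cannot be told apart.

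Scgb1a1 (probe ILMN_2749152, chromosome 19) was bright and its deposited level spanned little across the panel. Its deposited log2 level was 12.9 at the lowest, 13.1 at the median and 13.4 at the highest mouse, with an SD of 0.098 (n = 138). The 13.4, reached by 7 mice, is also the highest value in the whole deposited table, so a level gene and a probe at the top of its scale cannot be told apart. By deposited values, 0.56% of the 16617 genes tested had a lower SD. The deposited values of 10 or more carry at most 1 decimal, so Scgb1a1 took only 6 distinct values. Before normalization its intensity spanned 5861 to 12758, a 2.18-fold range around a median of 9114.45. Only 4 probes on the array had a higher mean, and normalization brought the SD down to 0.098, against 0.207 for the log2 intensities.

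Scgb3a2 (probe ILMN_2753867, chromosome 18) was also bright in most mice, with a tail of low ones. Its log2 level was 7.42 in the lowest mouse (line OR3389), 12.2 at the median and 12.8 in the 2 highest, with an SD of 1.00. Below 11 lay 15 mice, and the 25th percentile was already at 12, so most mice were close together on this probe. The second probe, ILMN_2835481, read 5.15 (line OR5087), 7.42 and 9.17 (line OR3358) at the lowest, median and highest mouse. It spread more evenly, with 25th and 75th percentiles of 6.51 and 8.02 and an SD of 1.07, and was not detected in 18 mice. The 2 probes correlated at r = 0.625 and rho = 0.539 over the 138 mice, and all 15 mice below 11 on the brighter probe were below the second probe's median. Of the 16 lowest mice on each probe, 14 were the same, so both probes had nearly the same mice in the low tail.

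Scgb3a1 (probe ILMN_2638082, chromosome 11) covered a wide range. Its log2 level was 4.98 in the lowest mouse (line OR799), 8.095 at the median and 11.5 in the highest (line OR3289), with an SD of 1.62 that exceeded the SD of 99.6% of genes. The level at the 95th percentile was 40.5 times that at the 5th. The probe was not detected in 20 of the 138 mice, which makes the low end a bound set by the background. The second probe, ILMN_2658200, read 5.07 (line OR5118), 7.235 and 9.78 (line OR867), and correlated with the first at r = 0.889 and rho = 0.888. Neither probe detected the gene in 18 mice, and 12 of the 16 lowest mice were shared. The mouse of line OR3289, highest on the first probe at 11.5, read 7.54 on the second, so the probes did not agree on the top of the range.

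Bpifa1 (probe ILMN_1258019, chromosome 2) varied most. Its log2 level was 5.2 in the lowest mouse (line OR2291), 6.84 at the median and 11.3 in the highest (line OR867), with an SD of 1.71 that exceeded the SD of 99.7% of genes. The 95th percentile was 45.8 times the 5th, and 34 of 138 mice showed no detection, so here too the low end is a bound. The middle of the panel lay closer to the low than to the high end, with 25th and 75th percentiles of 5.685 and 8.54.

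**Figure D1:**
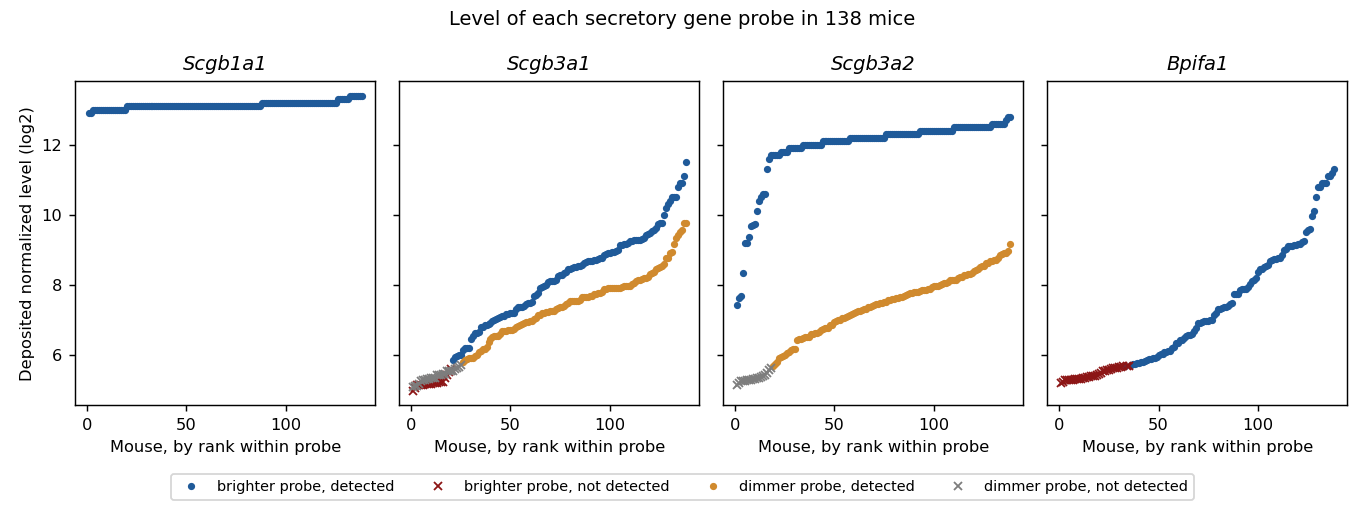
Deposited normalized log2 level of each probe (vertical axis) against the rank of the mouse within that probe (horizontal axis), 1 point per mouse, 138 mice, with crosses where the probe was not detected. Scgb1a1 lies between 12.9 and 13.4, where 13.4 is the highest value of the table. The brighter Scgb3a2 probe is flat with 15 mice under 11, and the dimmer one climbs from 5.15 to 9.17. The brighter Scgb3a1 probe and Bpifa1 climb steadily to 11.5 and 11.3.

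In order of spread, the brighter probes ran Bpifa1 (SD 1.71), Scgb3a1 (1.62), Scgb3a2 (1.00) and Scgb1a1 (0.098). The numbers in the mouse titles fall into a low range of 35 to 87 (73 mice) and a high range above it (65 mice), and no label says what they stand for. None of the 4 genes differed between these ranges past the threshold (2-sided permutation test, adjusted p of 0.343 to 0.646 over 4 genes). Scgb3a1 came nearest, with a mean of 7.59 ± 1.65 in the high range and 8.07 ± 1.57 in the low range (SD, n = 65 and 73).

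Scgb3a1 and Bpifa1 varied together. Over the 138 mice r was 0.496 and rho 0.495, each with a permutation p of 1e-05, the smallest that 100000 permutations can give, and an adjusted p of 6e-05 over the 6 pairs of genes. Without the 2 mice farthest from the median r was 0.465, within the low range of the title number it was 0.511 and within the high range 0.48. With the second Scgb3a1 probe it was 0.473. The mouse of line OR867 was at 11.3 for Bpifa1 and 10.9 for Scgb3a1, while the mouse of line OR799, lowest for Scgb3a1 at 4.98, had a Bpifa1 level of 7.88.

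The other 5 pairs were weaker. Scgb1a1 and Scgb3a2, both products of club cells, gave r = 0.204 (adjusted permutation p = 0.051) and rho = 0.292 (adjusted permutation p = 0.0013), but r was 0.0621 with the second Scgb3a2 probe. Without the 2 farthest mice that pair's r was 0.194, and within the low and high ranges it was 0.218 and 0.198. With the array's median intensity as a covariate, chosen after the data had been seen, the pair's r was 0.179 and its rho 0.181. Neither then passed (adjusted permutation p = 0.11 and 0.067). Bpifa1 and Scgb3a2 gave r = 0.0892 (adjusted permutation p = 0.45) and rho = 0.215 (adjusted permutation p = 0.023), and rho was 0.0968 with the second Scgb3a2 probe. Scgb3a1 and Scgb3a2 gave r = 0.0578 and rho = 0.181 (adjusted permutation p = 0.6 and 0.052). Scgb1a1 showed r = 0.0904 with Scgb3a1 and 0.0113 with Bpifa1 (adjusted permutation p = 0.45 and 0.89).

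To find the genes that varied with each of the 4, the log2 level of every tested gene was fitted on the level of the secretory gene with limma. Slopes are in log2 per SD of the secretory gene, and the p-values of a fit were adjusted over every gene in it (Benjamini-Hochberg, threshold 0.05). A gene is said to have risen or fallen with a secretory gene where its adjusted p passed and its slope was positive or negative. With Scgb3a1, 3.45% of 16616 genes rose and 1.79% fell. With Bpifa1, 0.999% rose and 0.108% fell. With Scgb3a2, 0.0181% rose and 0.0181% fell, which is 3 genes each way. With Scgb1a1, 9.7% rose and 14.8% fell, and its level correlated with the array's median intensity at r = -0.366.

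Genes of mucus production and goblet cells rose with Scgb3a1 and with Bpifa1. With Scgb3a1, 11 of 14 tested genes of the list rose and none fell, with a median r of 0.35 against -0.0215 over all genes. With Bpifa1, 7 of 14 rose and none fell, with a median r of 0.293 against -0.00553 over all genes. The gel-forming mucin Muc5b rose by 0.65 ± 0.09 log2 per SD of Scgb3a1 (SE, n = 138, limma adjusted p = 3.69e-07) and by 0.50 ± 0.10 per SD of Bpifa1 (limma adjusted p = 0.000638). Tff2, a trefoil peptide secreted with mucus, rose by 0.90 ± 0.12 with Scgb3a1 and 0.72 ± 0.13 with Bpifa1 (limma adjusted p = 7.98e-08 and 0.000143).

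Muc5ac, the other gel-forming mucin of the airway surface, rose by 0.65 ± 0.13 with Scgb3a1 and 0.63 ± 0.13 with Bpifa1. Foxa3 and Spdef, transcription factors of goblet cells, rose with both: r was 0.417 and 0.357 with Scgb3a1, and 0.374 and 0.353 with Bpifa1. Fcgbp, a mucus protein that binds IgG Fc, and Ern2, a stress sensor of secretory cells, also rose with both. Clca1, Capn9, Retnlb and Pigr, the receptor that carries IgA across epithelium, rose with Scgb3a1 and did not pass with Bpifa1. With Bpifa1, Capn9, Retnlb and Pigr were at r = 0.233, 0.198 and 0.114 (limma adjusted p = 0.206, 0.334 and 0.638). For Clca1 the values were r = 0.311 with Scgb3a1 and 0.283 with Bpifa1 (limma adjusted p = 0.0115 and 0.0596). Slc26a4, Tff1 and Creb3l1 did not pass with either gene.

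The difference between 2 secretory genes was tested by fitting each gene on the difference of their standardized levels, where a slope of 0 means an equal correlation with both. Between Scgb3a1 and Bpifa1, 0.0602% of genes differed, none of them among the 14 mucus genes. Between Scgb1a1 and Scgb3a1, where 10.7% of all genes differed, 10 of the 14 were more positively correlated with Scgb3a1. Between Scgb1a1 and Bpifa1, where 13.7% differed, 10 of 14 were more positively correlated with Bpifa1. Between Scgb3a1 and Scgb3a2, where 0.481% differed, 6 of 14 were more positively correlated with Scgb3a1. Between Scgb3a2 and Bpifa1, where 0.289% differed, Muc5ac, Muc5b and Tff2 were more positively correlated with Bpifa1. With Scgb3a2 itself none of the 14 passed, and with Scgb1a1 only Pigr rose (r = 0.323).

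Muscle genes of the heart, whose cells also line the pulmonary veins of mice, moved with the same 2 secretory genes. Over all genes, 3.45% rose with Scgb3a1 and 0.999% with Bpifa1, with median r of -0.0215 and -0.00553. With Scgb3a1, 7 of 9 tested genes of the cardiac muscle list rose, and with Bpifa1 9 of 9, with median r of 0.329 and 0.39. Nppa, which encodes atrial natriuretic peptide, rose by 0.73 ± 0.16 with Scgb3a1 and 0.85 ± 0.16 with Bpifa1. The myosin gene Myh6 rose by 0.47 ± 0.12 and 0.59 ± 0.11. With Scgb1a1 and Scgb3a2 none of the 9 passed. Ciliated cell genes rose with Scgb3a1 in 5 of 15 cases (Foxj1, Fam183b, Lrrc23, Mlf1 and Ccdc113) and with Bpifa1 in 1 (Mlf1). Of 3 fat cell genes tested, Adipoq and Cfd rose with both.

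With scores of the ciliated, cardiac muscle, smooth muscle and adipose lists as covariates, 3 of 14 mucus genes rose with Scgb3a1, where 4.31% of all genes rose, and 0 of 14 with Bpifa1, where 0.181% rose. Muc5b and Tff2 then rose by 0.37 ± 0.09 and 0.55 ± 0.12 log2 per SD of Scgb3a1 (limma adjusted p = 0.00641 and 0.0025), and the slope of Muc5ac was 0.24 ± 0.13 (limma adjusted p = 0.253). Per SD of Bpifa1 the slopes of Muc5b, Tff2 and Muc5ac were 0.13 ± 0.10, 0.26 ± 0.13 and 0.19 ± 0.13 (limma adjusted p = 0.835, 0.709 and 0.815). The correlation of Scgb3a1 with Bpifa1 was then 0.34 (adjusted permutation p = 0.00024, against 6e-05 without them). Within the low range of the title number, 6 mucus genes rose with Scgb3a1 and 4 with Bpifa1, where 0.463% and 0.512% of all genes rose. Within the high range the mucus counts were 2 and 0, where 0.132% and 0.102% of all genes rose, so fewer genes of any kind were called in each range. Cardiac genes in the low range numbered 0 with Scgb3a1 and 6 with Bpifa1, and none passed in the high range. Beyond these fits, the part of the other tissues in the results was not tested.

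**Figure D2:**
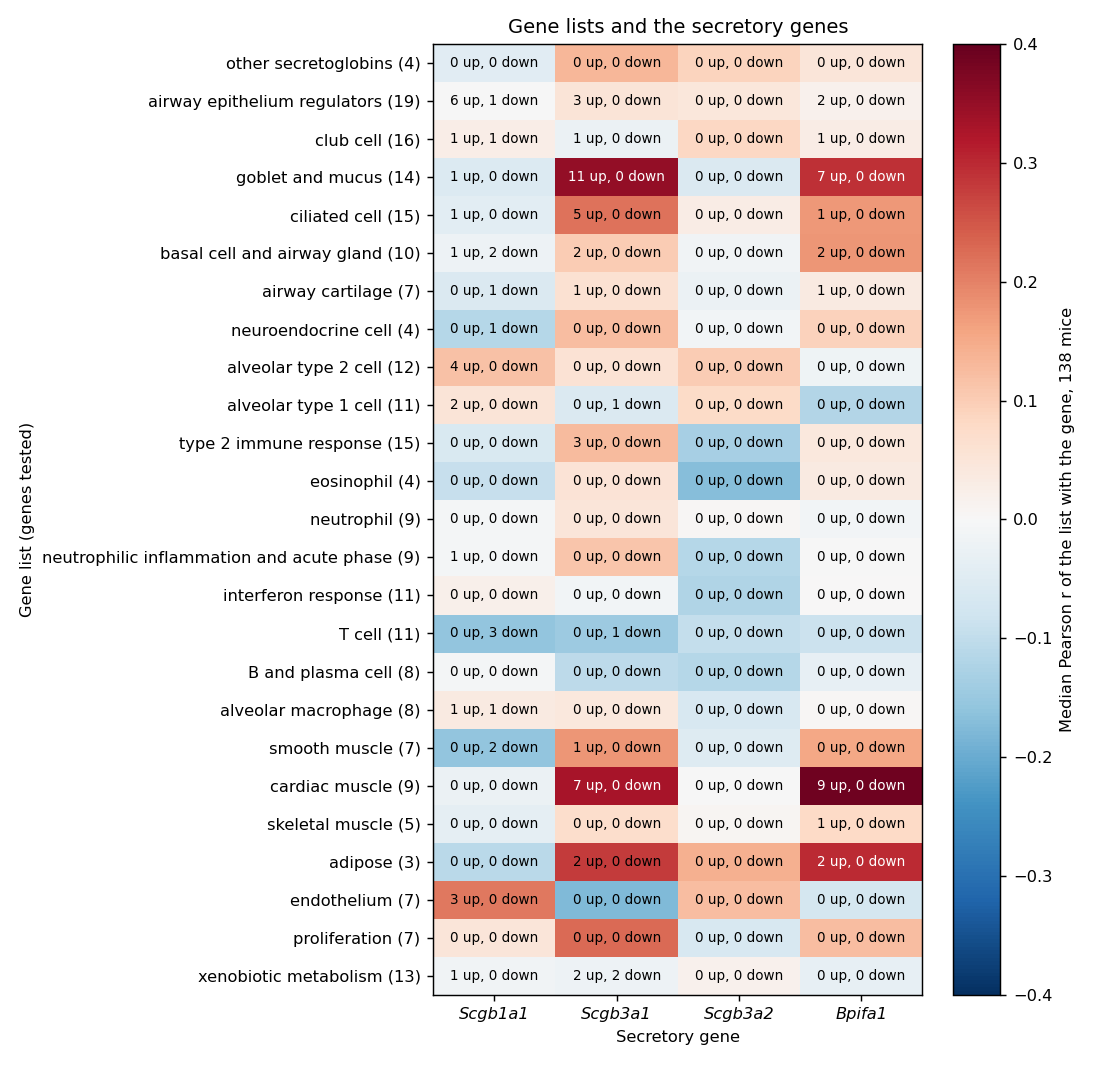
Each cell gives, for 1 list of genes (rows, number tested in brackets) and 1 secretory gene (columns), the median Pearson r over 138 mice as colour and the number of genes that rose or fell with it as text. The mucus list is at 11 of 14 with Scgb3a1 and 7 of 14 with Bpifa1, and the cardiac list at 7 and 9 of 9.

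Reg3g, a secreted lectin that kills gram-positive bacteria, was the gene most like Scgb3a1 and also the gene most like Bpifa1 by Pearson r among those named here. Its log2 level was 4.9 at the lowest, 7.05 at the median and 11 at the highest mouse, and 25 of the 138 mice did not detect it. It rose by 0.93 ± 0.11 log2 per SD of Scgb3a1 (r = 0.599, limma adjusted p = 3.98e-11) and by 0.95 ± 0.10 per SD of Bpifa1 (r = 0.615, limma adjusted p = 9.64e-12). Line OR867, highest for Bpifa1, also held the highest Reg3g level. Reg3g passed in both ranges of the title number and with the 4 tissue scores as covariates, with a slope of 0.58 ± 0.10 for each secretory gene with those scores.

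Ltf, which encodes the iron-binding protein lactoferrin, rose with Scgb3a1 (r = 0.47) and with Bpifa1 (r = 0.411). Dmbt1, a secreted scavenger protein, rose with both as well (r = 0.322 and 0.391) and was detected in 58 of 138 mice. Ltf and Dmbt1 were the 2 of 10 genes of the basal cell and gland list that rose with either gene. Of all genes, 3.45% rose with Scgb3a1 and 0.999% with Bpifa1. Gp2, a surface glycoprotein that binds bacteria, followed Scgb3a1 at r = 0.492, and its r with Bpifa1 was 0.434. Slpi, a secreted inhibitor of neutrophil proteases, moved the other way: it fell by 0.60 log2 per SD of Bpifa1 (SE 0.13, r = -0.357, limma adjusted p = 0.00302). Slpi lies on the chromosome of Bpifa1, chromosome 2, 94 tested genes away. With Scgb3a1 the r of Slpi was -0.153, which did not pass.

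**Figure D3:**
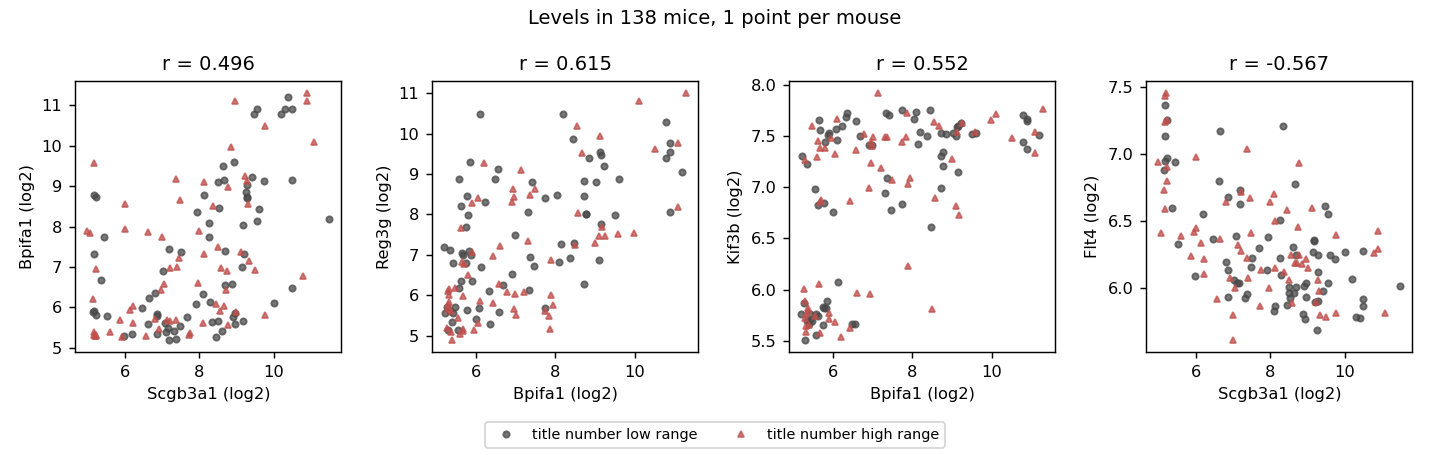
Log2 levels of gene pairs in 138 mice, 1 point per mouse, with circles for the low and triangles for the high range of the title number. From left to right r is 0.496 (Scgb3a1 with Bpifa1), 0.615 (Bpifa1 with Reg3g), 0.552 (Bpifa1 with Kif3b) and -0.567 (Scgb3a1 with Flt4). Kif3b lies in 2 separate bands of 98 and 40 mice.

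Genes on the chromosome of Bpifa1 were frequent among those most like it, although Reg3g, on chromosome 6, came first. Most of the genes called with Bpifa1 lay elsewhere: of the 184 called genes, 18.5% were on chromosome 2, 67.9% on other chromosomes and 13.6% not placed. Of the 20 genes most like Bpifa1 in the 2 directions together, 13 lie on its own chromosome 2, which holds 6.04% of tested genes. Of its 40 nearest tested genes, 20 on each side, 8 rose and none fell. The called share was 20% among the nearest 20 on each side, 13.8% from 21 to 60 genes away, 3.33% from 61 to 150 and 1.05% on other chromosomes. Kif3b, which encodes a kinesin motor subunit, lies 5 tested genes away. Its level was 5.51, 7.31 and 7.92 at the lowest, median and highest mouse, and it rose by 0.43 ± 0.06 log2 per SD of Bpifa1 (r = 0.552, limma adjusted p = 4.09e-09). The Kif3b levels lay in 2 bands split at their widest gap, with 98 mice between 6.61 and 7.92 and 40 mice between 5.51 and 6.23, and r was lower within each band than over all mice. Within the upper band r with Bpifa1 was 0.214, and within the lower band it was 0.344, both given as a description.

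The neighbours that rose also included Dnmt3b, a DNA methyltransferase (2 tested genes away, r = 0.503), Pdrg1 (r = 0.443), Tspyl3 (r = 0.4), the forkhead factor Foxs1 (r = 0.528), the spindle protein gene Tpx2 (r = 0.538) and Cox4i2, a subunit of cytochrome c oxidase with high expression in lung (r = 0.5). Tpx2 was detected in only 36 of the 138 mice, so most of its values are at the background. All 8 neighbours were called again with the tissue scores and with the other 3 secretory genes as covariates, and 3 genes were called in the high range of the title number, where 0.102% of all genes rose. Pdrg1 and Cox4i2 were also more positively correlated with Bpifa1 than with Scgb3a1, where their r was 0.0216 and 0.0827 (limma adjusted p of the difference 0.00135 for each). Trib3, a pseudokinase gene 24 genes away, fell with Bpifa1 (r = -0.403).

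On chromosome 11 the gene directly next to Scgb3a1 among those tested, Flt4, fell with it. Flt4 encodes VEGF receptor 3, a receptor of lymphatic endothelium. Its log2 level was 5.62 at the lowest, 6.245 at the median and 7.45 at the highest mouse. It fell by 0.23 log2 per SD of Scgb3a1 (SE 0.03, r = -0.567, limma adjusted p = 1.76e-09), the lowest r of any named gene with Scgb3a1, and it passed in both ranges of the title number. With Bpifa1 the r of Flt4 was -0.123, and the difference between the 2 passed (limma adjusted p = 0.000807).

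Of the 40 nearest tested genes of Scgb3a1, 6 rose and 5 fell. The called share was 27.5% among the nearest 20 on each side, 17.5% from 21 to 60 genes away, 14.4% from 61 to 150 and 5.6% on other chromosomes. With the second Scgb3a1 probe, 2 of the 40 rose and 3 fell, where 3.61% and 1.19% of all genes did. Havcr1 (TIM-1, a receptor of T cells and kidney epithelium) was at r = -0.423 but was not detected in 110 of the 138 mice, and Psme2b and Med7 were at 0.414 and 0.387. Ttc1, 24 genes away, fell with Scgb3a1 (r = -0.416) and differed from its r of -0.043 with Bpifa1 (limma adjusted p = 0.0211). Otx1, a homeobox gene 83 genes from Scgb3a1 on chromosome 11, rose with Scgb3a1 (r = 0.494) and with Bpifa1 (r = 0.513).

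All 3 genes named by likeness to Scgb3a2 lie on its chromosome 18, which holds 1.92% of tested genes. Stard4, a cholesterol transport protein gene, rose by 0.60 ± 0.12 per SD (r = 0.383, limma adjusted p = 0.0118). Cdo1, which encodes cysteine dioxygenase, rose by 0.11 ± 0.02 (r = 0.364, limma adjusted p = 0.0294). Stk32a, a kinase gene 3 tested genes away, fell by 0.16 (SE 0.03, r = -0.376, limma adjusted p = 0.0165). Each of the 3 calls was lost without the 2 mice farthest from the Scgb3a2 median, where 2 genes passed in all, and in the high range of the title number, where limma called 0 genes and 884 had an unadjusted p under 0.05. Of all 6 genes called with Scgb3a2, 4 lay on chromosome 18 and 2 were not placed on any chromosome. Among the genes not placed, r reached 0.504 in size. Called genes made up 5% of the nearest 20 on each side and none of 12536 genes on other chromosomes. In the whole fit, 1086 genes had an unadjusted p under 0.05. These counts depended on the measure. With normal scores of the same probe, which replace levels by ranks on a normal scale, 12.4% of genes passed. In that fit 4 of the 40 nearest genes rose and 7 fell. With the second probe 1.4% of genes passed, and 2 of the 40 nearest rose and 1 fell.

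For Scgb1a1 the called share was 32.5% among the nearest 20 genes on each side and 32.5% from 21 to 60 genes away. Farther along the chromosome the share was 20.6% from 61 to 150 and 29.9% over 150 genes away, and it was 25% on other chromosomes. The called share was 40% for the nearest 10 on each side, and 40% for the nearest 20 with neqc, a normalization of the scanner intensities. The difference between the nearest genes and other chromosomes was not tested, and 0 of the 20 most alike genes lie on chromosome 19.

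**Figure D4:**
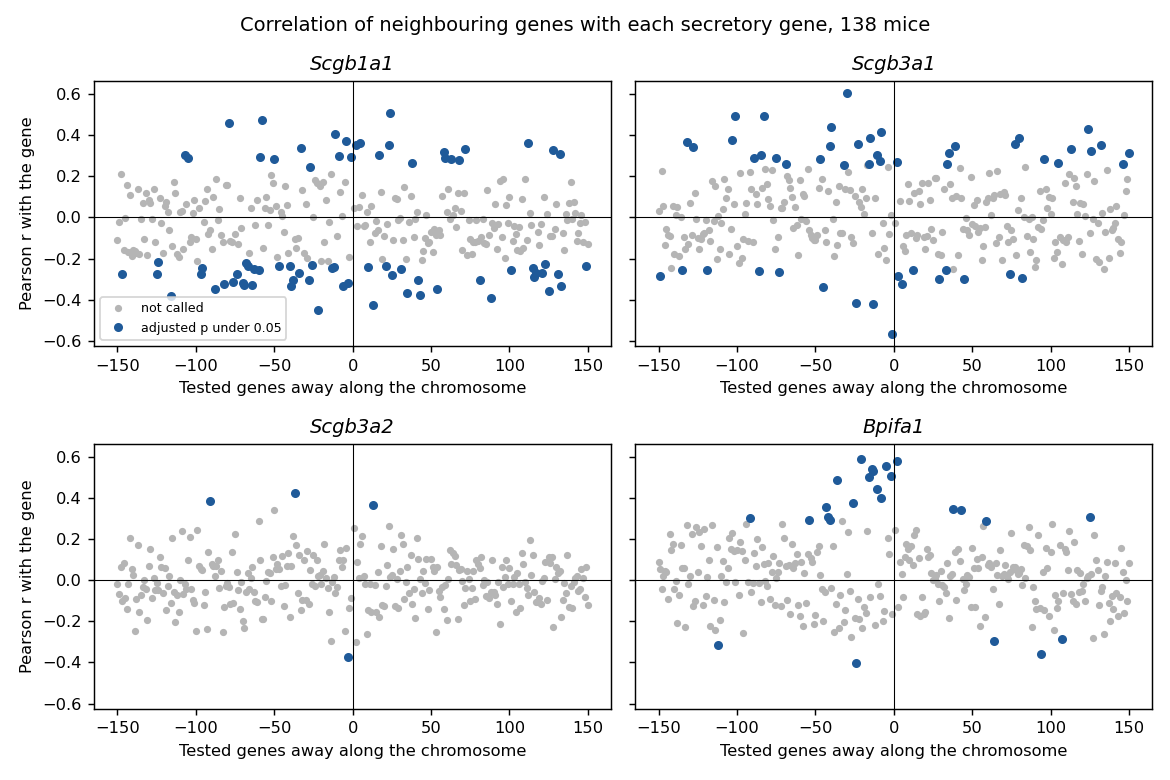
Pearson r over 138 mice of each tested gene with the secretory gene (vertical axis) against the number of tested genes between them along the chromosome (horizontal axis, up to 150 each way), blue where the adjusted p was under 0.05. For Bpifa1 the blue share is 20% within 20 places, 13.8% from 21 to 60 and 3.33% from 61 to 150. Kif3b is at 0.552 with Bpifa1, and Flt4 at -0.567 stands next to Scgb3a1.

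Few of the listed relatives of the 4 genes were tested, so the families as a whole were not covered. Of 12 other secretoglobins listed, 4 were tested (Scgb1c1, Scgb1b2, Scgb2b2 and Scgb2b26), and none passed with any of the 4 genes. Scgb1c1, the brightest of them with detection in all mice, gave r = -0.23 with Scgb3a1 and -0.195 with Bpifa1 (limma adjusted p = 0.08 and 0.343). Of 16 BPIF proteins and relatives listed, Lbp and Pltp were tested. Pltp rose with Scgb1a1 (r = 0.234, limma adjusted p = 0.028), where 9.7% of all genes rose. It did not pass with Scgb3a1, Scgb3a2 or Bpifa1. Lbp, which binds bacterial lipopolysaccharide, rose with Scgb3a1 (r = 0.319) and with Bpifa1 (r = 0.289, limma adjusted p = 0.0497), a call that was lost under 10 of 13 alternatives. A probe that the file names PSP, which matched no single current symbol, rose with Bpifa1 (r = 0.485, limma adjusted p = 1.32e-06) and was detected in 52 mice.

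Club cell genes showed no common movement with any of the 4. Of 16 tested, 1 rose with Scgb3a1 (Gabrp, a GABA receptor subunit, r = 0.346), 1 with Bpifa1 (Krt15, r = 0.321) and none with Scgb3a2. The shares of all genes that rose with these were 3.45%, 0.999% and 0.0181%. With Scgb1a1, Aldh1a1 rose and Iyd fell, shares below those over all genes. The club cell enzymes Cyp2f2 and Cbr2 gave r of -0.112 and 0.15 with Scgb1a1.

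Regulators of the airway epithelium followed Scgb1a1 in part. Of 19 tested, 6 rose (Nkx2-1, Foxa2, Cebpa, Notch1, Notch2 and Elf5) and 1 fell (Nfia), against 9.7% and 14.8% of all genes. The median r of this list was -0.00203, so the list as a whole did not follow Scgb1a1. Nkx2-1, the lung lineage factor that acts on secretoglobin genes, gave r = 0.465 with Scgb1a1 (limma adjusted p = 7.24e-07) and 0.163 with Scgb3a2 (limma adjusted p = 0.757). Of alveolar type 2 genes, 4 of 12 rose with Scgb1a1 (Sftpc, Sftpd, Lpcat1 and Scd1), with a median r of 0.116 against -0.0374 over all genes. Some markers of other cell types were also called with Scgb1a1, in a fit where 9.7% of all genes rose and 14.8% fell. Of endothelial genes, 3 of 7 rose (Cdh5, Tie1 and Pecam1, median r 0.21), and of alveolar type 1 genes 2 of 11 (Cav1 and Hopx, median r 0.0512). Of T cell genes, 3 of 11 fell (Cd28, Cd3d and Cd3g, median r -0.159), and of smooth muscle genes 2 of 7 (Acta2 and Lmod1, median r -0.158). With the array median of the intensity as a covariate, chosen after the data had been seen, 7.5% of all genes rose and 7.37% fell. In that fit 4 regulators rose and 1 fell, 3 alveolar type 2, 1 endothelial and 2 type 1 genes rose, and 3 T cell and 0 smooth muscle genes fell. The part of these cell types in the Scgb1a1 results was not tested. The genes most like Scgb1a1 were S100a6, a calcium-binding protein gene (r = 0.631), and Cdh1, which encodes E-cadherin (r = 0.619), and the least like was Wdr33, an RNA processing factor gene (r = -0.584).

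Genes of the type 2 immune response, which drives allergic inflammation, rose with Scgb3a1 in 3 of 15 cases, where 3.45% of all genes rose. Ccl8, a chemokine, rose with it (r = 0.289), as did Chil4, a chitinase-like protein gene (r = 0.279), and Retnla, a resistin-like protein gene (r = 0.26). Of 14 alternatives, the call was lost under 4 for Ccl8, 5 for Chil4 and 8 for Retnla. None of the 15 passed with Scgb3a2, Bpifa1 or Scgb1a1. Scgb3a2 gave r = -0.29 with Ccl8 and -0.246 with Ccl11, an eosinophil chemokine (limma adjusted p = 0.382 and 0.59). The Scgb3a2 calls depended on the measure. With the second Scgb3a2 probe, 4 of 15 fell (Arg1, Ccl8, Ccl11 and Il4), where 0.602% of all genes fell. With normal scores of the first probe, 6 of 15 fell (Arg1, Ccl8, Il4, Il5, Il1rl1 and Mrc1), where 6.75% of all genes fell. With normal scores, 2054 of 16616 genes passed in all, against 6 with the deposited values.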

How the data were processed

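Total RNA from lung was amplified, biotin-labelled and hybridised to Illumina WG6v2 arrays, 1 array for each of 138 mice. The deposited scanner table holds an intensity and a detection p-value per probe and array, per the file headers. The authors also deposited normalized log2 values, made with GenomeStudio and R 2.9.2 by RMA with quantile normalization, per the submitters' processing notes and design text. No source used here says whether background was subtracted first. The column medians were all 5.57 (lowest value 4.68, highest 13.4), and all 138 columns correlated best with their own array's intensities, so scale and array match are known and genes were not centred. Deposited values of 10 or more carry at most 1 decimal.

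The deposited log2 values were the main values. A probe was kept if at least 14 mice detected it at p under 0.05 (24450 of 45281), and the brightest kept probe represented a gene (16617 genes, of which 5319 had more than 1). Names came from the scanner table, updated through RefSeq GRCm38.p6: symbols in use today fitted 22864 probes, synonyms of a single gene fitted 11917, and 10500 stayed as the file names them. RefSeq also gave the gene order and the promoters. Probe sequences were not used here.

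Each gene was fitted on the standardized level of a secretory gene with limma 3.58.1 in R 4.3.3 (lmFit and eBayes), with Benjamini-Hochberg adjustment over all genes and a threshold of 0.05. Pairs of secretory genes were tested with 100000 two-sided permutations in Python 3.11.15 (numpy 2.4.6, scipy 1.17.1, pandas 2.3.3). The steps were tested on simulated data. Named genes are the probes of the 4 genes, the members of 26 lists, called neighbours, and up to 10 genes per direction with the highest or lowest r among called genes detected in at least 69 mice, with clones and predicted genes passed over. PSP was named after its values were seen. A gene that the rule would name is not reported here. The members and lists were chosen with earlier results of these data known. Alternatives were neqc on the scanner intensities (offset 16), the second probe, other filters, covariates and subsets of mice. Each line gave 1 mouse, so p-values cover the spread between mice of different lines.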

Additional observations from a re-analysis of the deposited data

How the results depend on the processing

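No paired analysis was possible because the labels give 1 group. The slide was not used as a block because the file headers name none. Of the pairs, Scgb1a1 with Scgb3a1 turned to -0.0569 with the second Scgb3a1 probe, and Bpifa1 with Scgb1a1 to -0.0439 in the high range of the title number. Scgb1a1 with Scgb3a2 passed at 0.21, 0.212 and 0.218 with the title range, the number of detected probes or the tissue scores as covariates. With the array median intensity as a covariate that pair did not pass by r (0.179) or by rho (0.181). Scgb3a1 with Bpifa1 passed under every alternative run.

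The share of tested genes called moved by over 1.5 times as follows, with fewer mice in the 2 ranges and other numbers of genes under other filters. For Scgb1a1 (24.5%) it was 12.4% in the low and 6.47% in the high range, and 14.9% with the array median intensity as a covariate, added after seeing the data. For Scgb3a1 (5.24%) it was 0.764% and 0.162% in the ranges, 2.92% without the 2 farthest mice, 2.24% with no filter and 0.674% with the other 3 genes as covariates. For Scgb3a2 (0.0361%, 6 genes) it was 0% in the high range (0 genes by limma, with 884 at an unadjusted p under 0.05), 0.012% without the 2 farthest mice, 0.0103% with probes detected in every mouse, 1.4% with the second probe and 12.4% with normal scores. For Bpifa1 (1.11%) it was 0.548% and 0.108% in the ranges, 0.229% with the tissue scores, 0.579% with no filter, 0.393% with probes detected in every mouse and 0.193% with the other 3 genes. Differences between Scgb1a1 and Scgb3a2 (3.53%) were 6.22% with neqc and 6.44% with probes detected in every mouse. With that filter, differences between Scgb3a1 and Scgb3a2 were 0.321% (0.481% as reported), and between Scgb3a2 and Bpifa1 0.0827% (0.289% as reported). The SD of Scgb1a1 was 0.207 without normalization.

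Of the results for single named genes, 1872 kept direction and call, 506 kept direction and lost the call, and 2 turned: Cpsf7 with Scgb1a1 (slope 0.00488, mean of probes) and Rack1 with Scgb3a1 (slope -0.00251, second probe). Beyond what is stated, the cause was not tested. Scgb3a1 and Bpifa1 lay below detection in 20 and 34 mice, which limits the low end of both.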
